A study of Mus musculus with 6 samples.

Results

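Cyclosporin A (CsA) was set against 3 drugs that act on nitric oxide synthesis, gene by gene, in mouse cardiac allografts. The 4 arrays used, of 6 in the series, were those labelled CsA, ABH4, BH4 and NIL, and the untreated allograft and the syngraft did not enter. The CsA graft came from a mouse given cyclosporin A at 15 mg/kg every 24 h. The ABH4 graft received 4-amino tetrahydrobiopterin at 50 mg/kg every 8 h. The BH4 graft received tetrahydrobiopterin at 50 mg/kg every 8 h. The NIL graft received N-imino ethyl-L-lysine at 5 mg/kg every 8 h. Doses and intervals therefore differed, and all 4 hearts were allografts. Each group was 1 array of total RNA, so a difference between groups has no replicate check and no test was made. The labels do not give the mouse strains, the day of removal, or whether several grafts were pooled on an array.

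CsA binds cyclophilin, and the pair blocks the phosphatase calcineurin, which keeps the NFAT transcription factors out of the nucleus of an activated T cell and holds back transcription of cytokine genes such as Il2 and Ifng. BH4 is a cofactor that all nitric oxide synthases need, ABH4 is an analog of it that inhibits these enzymes, and NIL is an inhibitor with preference for the inducible synthase. In a rejecting heart graft, T cells and macrophages enter the muscle, and interferon-gamma from lymphocytes induces antigen presentation, chemokines and the inducible nitric oxide synthase.

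For each gene the CsA signal was compared with the range spanned by the ABH4, BH4 and NIL signals. The signal is the deposited fluorescence intensity of a probe set after each array had been rescaled to a common median, and a floor of 34.9 stands for every lower signal. The gap is the fold by which CsA lay above the highest of the 3 arrays or below the lowest. Genes with a gap of at least 1.5-fold are counted as above or below the range, and a gap that rests on the floor is a lower bound. Signals of different genes come from different probes and are not compared with each other. The 3 differences CsA minus ABH4, CsA minus BH4 and CsA minus NIL all contain the CsA array, so they do not count as independent evidence. In whole-graft RNA, fewer cells of a type and less RNA per cell cannot be told apart.

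Of 12393 genes, CsA lay below the range by at least 1.5-fold in 600 genes, 4.84% of all, and above it in 383 genes, 3.09%. At 2-fold or more the counts were 232 below (1.87%) and 102 above (0.823%). By any amount CsA was below all 3 arrays in 3507 genes (28.3%) and above all 3 in 2835 (22.9%). The widest gap below the range was that of the acute-phase gene Saa3, and the widest above it that of the apelin receptor gene Aplnr. Of the genes past 1.5-fold, 39.0% lay above the range. On the deposited values without rescaling this share was 53.9%, with 533 genes above and 456 below. The deposited CsA median was higher than the mean of the other medians by 0.11 on the log2 scale. The directions given below are relative to the rescaled medians.

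The counts have sharp edges that carry no meaning of their own. Above the range, Thra had a gap of 1.5002-fold and was counted, and Zfp36l1 with 1.4989-fold was not. Below the range, Myl1 had 1.5031-fold and was counted, and Cdk2ap2 with 1.4998-fold was not. The gap was wider than the whole span of ABH4, BH4 and NIL in 569 of the 600 genes below and in 311 of the 383 above. The threshold largely brings this about, so these counts lend the calls no separate weight. Thra, just past the threshold, had a gap of 0.585 on the log2 scale. The median span was 0.33 in the genes below, 0.33 in those above and 0.29 over all genes. Another probe set of the same gene pointed the opposite way in 41 of the 600 and in 19 of the 383.

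**Figure D1:**
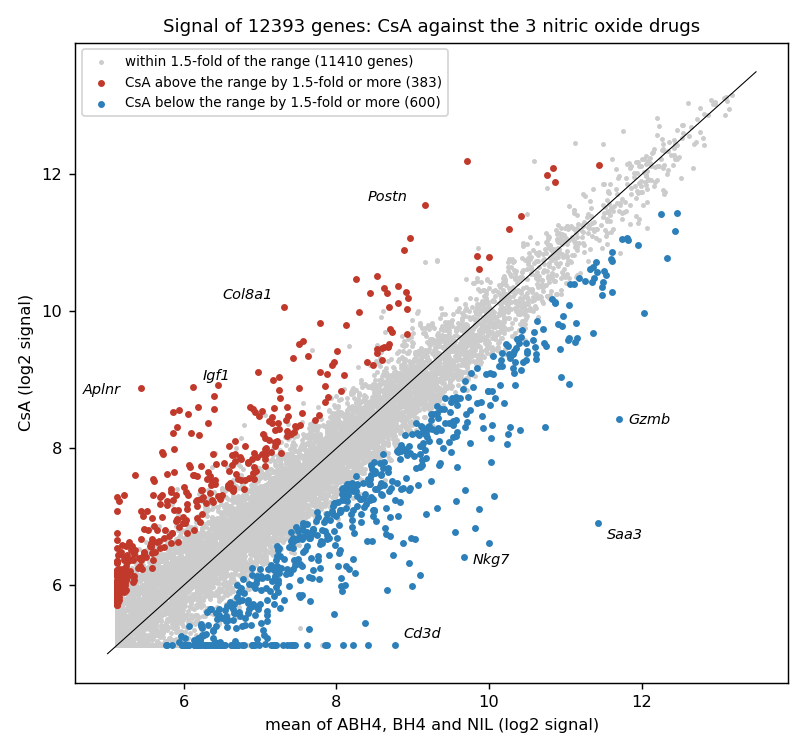
Log2 signal of each of 12393 genes on the CsA array (vertical axis) against the mean of the ABH4, BH4 and NIL arrays (horizontal axis). Red points are the 383 genes with CsA above the range by at least 1.5-fold, blue points the 600 below it and grey points the rest, and the line marks equal signal. Saa3 and Gzmb lie far below the line and Aplnr and Col8a1 far above it. The row of blue points along the bottom holds genes at the floor on CsA.

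The deposited medians were 88.3 for CsA, 80.4 for ABH4, 78.4 for BH4 and 86.0 for NIL. The 3' to 5' signal ratio of Actb probe sets lay between 1.04 and 1.12, and that of Gapdh between 0.788 and 0.862 with CsA the lowest. Genes at the floor numbered 2902 on CsA, 3246 on ABH4, 3162 on BH4 and 2864 on NIL. Across genes, Pearson's r was between 0.950 and 0.959 for CsA with each of the 3 arrays, and between 0.970 and 0.980 among those 3. Salivary gland genes stood out on the BH4 array, where the summed signal of 22 listed salivary and glandular genes was 15160, against 1316 on CsA, 1015 on ABH4 and 1550 on NIL. All 5 defining cardiomyocyte markers were above the floor on all 4 arrays, and both measured fat markers were at the floor on all 4. Of 11 adipose genes, 5 were at the floor on all 4 arrays and 2 were above the range, Fabp4 by 1.72-fold and Retn by 1.55-fold. The part of the salivary genes in the results was not tested, and counts with the BH4 array left out of the range are given for the lists in which they differed most.

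Genes of the T cell receptor and its signalling lay below the range as a group. CsA was below all 3 arrays by at least 1.5-fold in 16 of 20 measured genes and above in 0, with a median difference from the mean of the 3 of -1.49 on the log2 scale, against 0.00 over all genes. Cd3d, a signalling chain of the T cell receptor, was at the floor on CsA and had signals of 523 on ABH4, 343 on BH4 and 457 on NIL, a gap of at least 9.83-fold. Cd3e, another chain of that complex, was at the floor on CsA, against 375 on ABH4, 259 on BH4 and 406 on NIL, at least 7.41-fold. Cd3g had 63.3 on CsA, against 564 on ABH4, 391 on BH4 and 591 on NIL, a gap of 6.17-fold. In all 3 CD3 chains the CsA signal was far below the lowest of the other arrays, which was BH4 each time.

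Lat, the membrane adaptor that relays the receptor signal, was at the floor on CsA, against 321 on ABH4, 212 on BH4 and 292 on NIL, at least 6.07-fold. Cd8a, the co-receptor of cytotoxic T cells, had 68.8 on CsA, against 310.3 on ABH4, 226.9 on BH4 and 269 on NIL, a gap of 3.30-fold. Trav9d-3, a variable segment of the receptor alpha chain, had 158 on CsA, against 1126 on ABH4, 900.0 on BH4 and 1214 on NIL, a gap of 5.68-fold. Variable segments resemble each other, so its probe set may read several of them. Cd4 was at the floor on all 4 arrays. Ms4a4b, a membrane protein of mouse T cells, had 71.3 on CsA, against 681 on ABH4, 368 on BH4 and 647 on NIL, a gap of 5.16-fold. For all 16 genes below the range the nearest array was BH4, and 6 of the 16 gaps are bounds. With the floor at the 50th percentile 10 of the 20 genes were below the range.

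The cytotoxic and natural killer genes showed the same direction, with 15 of 22 below the range, 0 above and a median difference of -1.76. Gzmb, a serine protease of cytotoxic granules, had 346 on CsA, against 3707 on ABH4, 2976 on BH4 and 3362 on NIL, a gap of 8.60-fold. Gzma, a second granule protease, had 98.5 on CsA, against 1378 on ABH4, 762 on BH4 and 1025 on NIL, a gap of 7.73-fold. Nkg7, a protein of the granule membrane, had 85.5 on CsA, against 933 on ABH4, 565 on BH4 and 1027 on NIL, a gap of 6.61-fold. These 3 genes kept a clear distance between CsA and the lowest other array, which was again BH4.

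Il2rb, the beta chain of the receptors for interleukins 2 and 15, had 60.9 on CsA, against 420.4 on ABH4, 319 on BH4 and 493 on NIL, a gap of 5.24-fold. Prf1, the pore-forming protein of the granules, had 100.2 on CsA, against 398 on ABH4, 268 on BH4 and 365 on NIL, a gap of 2.67-fold. Another Prf1 probe set differed in the opposite direction, and with the mean over its probe sets the gap fell under 1.5-fold. The sum of 6 defining markers of natural killer and cytotoxic cells was 881 on CsA, against 5894 on ABH4, 4312 on BH4 and 5555 on NIL. The sum of 5 defining T cell markers was 205 on CsA, with 3 of the 5 at the floor, against 1727 on ABH4, 1136 on BH4 and 1704 on NIL, with 0 at the floor.

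**Figure D2:**
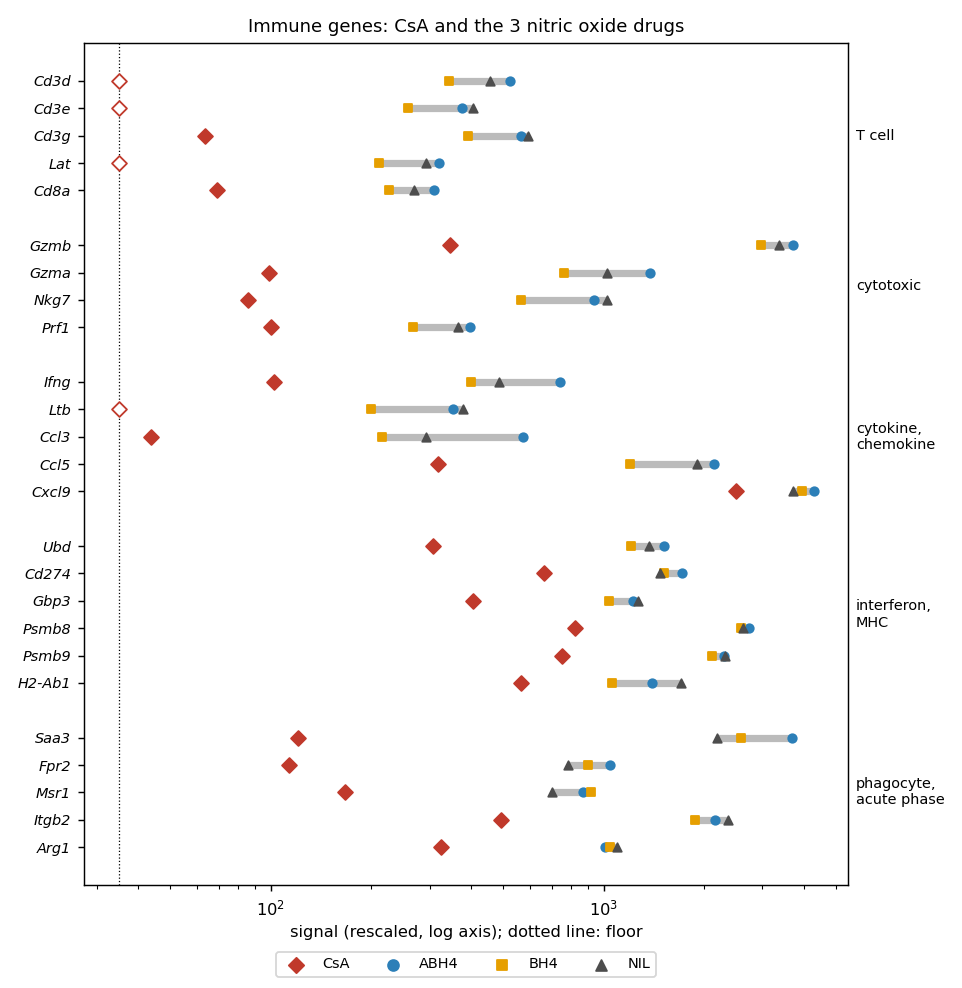
Rescaled signal on a log axis for immune genes, with CsA as red diamonds, ABH4 as blue circles, BH4 as orange squares and NIL as grey triangles. The grey bar is the range of ABH4, BH4 and NIL, the dotted line the floor of 34.9, and open symbols are values at the floor. CsA lies left of the grey bar in every gene drawn, by 18.2-fold in Saa3 and by 1.49-fold in Cxcl9.

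The cyclophilins and the calcineurin pathway were mostly within 1.5-fold of the range, as were genes in general. Over all genes 3.09% were above the range and 4.84% below, so the counts do not set these lists apart. Of 7 measured cyclophilins, 0 were outside the range by 1.5-fold, and Ppia was not measured by a probe set of its own. Of 16 genes of calcineurin, the NFAT factors and their regulators, 1 was outside. It was Nfatc3, an NFAT factor, with 52.7 on CsA, against 120.0 on ABH4, 104 on BH4 and 82.4 on NIL, a gap of 1.56-fold below. That gap ended under a higher floor and with the mean over its probe sets. Ppp3ca, the catalytic alpha subunit of calcineurin, had 300.5 on CsA, against 193 on ABH4, 164 on BH4 and 262 on NIL, a gap of 1.15-fold above. Rcan1, a calcineurin inhibitor that is itself an NFAT target, had 1385 on CsA, against 1171 on ABH4, 1113 on BH4 and 1213 on NIL, a gap of 1.14-fold above. Nfatc2 lay inside the range. The group's median difference was -0.10, and it was 0.02 on the deposited values.

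Among 27 cytokines and activation receptors of lymphocytes, 8 were below the range, 1 was above, and 7 were at the floor on all 4 arrays, including Il2. Ifng, the cytokine that drives macrophage activation, had 102 on CsA, against 739 on ABH4, 400.5 on BH4 and 485 on NIL, a gap of 3.91-fold. Ltb, the lymphotoxin beta chain, was at the floor on CsA, against 352 on ABH4, 200.5 on BH4 and 379 on NIL, at least 5.74-fold. Ctla4, an inhibitory receptor of activated T cells, was at the floor on CsA, against 219.9 on ABH4, 136 on BH4 and 168 on NIL, at least 3.90-fold. CsA was the lowest array in each of these genes, and the ABH4, BH4 and NIL signals spread less among themselves than their distance to CsA. The genes have the widest gaps of the list, so both features largely follow from how they were picked.

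Tnfrsf9, the activation receptor 4-1BB, had 116 on CsA, against 314 on ABH4, 241 on BH4 and 341 on NIL, a gap of 2.09-fold that another of its probe sets did not share. Tnf had 74.8 on CsA, against 173 on ABH4, 123 on BH4 and 143 on NIL, a gap of 1.65-fold. On the deposited values, and under a floor at the 50th percentile, the Tnf gap was under 1.5-fold. The list's median difference was -0.05, and with the floor at the 50th percentile 4 of its members were below the range.

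The stretches of 250 bases before the annotated start of Ifng and Ccl3 are shown because NFAT factors bind the core GGAAA, searched with its reverse complement TTTCC and here in capitals. They were taken from RefSeq on GRCm38.p6 and run 5' to 3' on the gene's own strand, chr10:118440796-118441045 (plus strand) for Ifng and chr11:83649379-83649628 (minus strand) for Ccl3. The core began 172 bases before the start of Ifng, and 59 and 34 bases before that of Ccl3.
Ifng: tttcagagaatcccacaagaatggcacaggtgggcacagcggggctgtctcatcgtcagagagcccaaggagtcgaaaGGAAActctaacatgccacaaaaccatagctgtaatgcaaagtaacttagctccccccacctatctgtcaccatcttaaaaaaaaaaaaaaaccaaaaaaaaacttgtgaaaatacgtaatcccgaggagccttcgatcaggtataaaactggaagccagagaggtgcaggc
Ccl3: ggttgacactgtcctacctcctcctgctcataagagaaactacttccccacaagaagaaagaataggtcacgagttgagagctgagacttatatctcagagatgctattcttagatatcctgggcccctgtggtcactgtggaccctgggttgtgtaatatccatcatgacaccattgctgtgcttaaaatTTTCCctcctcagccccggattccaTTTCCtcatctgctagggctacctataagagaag
This core is short and common. It occurred in 54.5% of the 9887 genes on the arrays that had a promoter entry and in 55.6% of all 27025 entries. It was found in 18 of 23 cytokine genes, in 59.7% of the 469 genes below the range with an entry, and in 57.3% of the 281 above it. The cytokine genes did not stand apart from other lists. The core was in 13 of 16 interferon-gamma induced genes, 13 of 16 type I induced genes and 10 of 13 T cell genes with an entry. It was in 7 of 12 MHC class I genes and 10 of 17 cytotoxic and natural killer genes. A match is a description of letters and not a binding site.

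Chemokines and their receptors were split, with 8 of 31 below the range and 3 above. Ccl3, which attracts monocytes and T cells, had 43.6 on CsA, against 573 on ABH4, 217 on BH4 and 293 on NIL, a gap of 4.97-fold. Ccr1, a receptor for Ccl3 and Ccl5, had 141 on CsA, against 705 on ABH4, 648 on BH4 and 568 on NIL, a gap of 4.04-fold. Ccl5, made by cytotoxic T cells among others, had 317 on CsA, against 2147 on ABH4, 1198 on BH4 and 1909 on NIL, a gap of 3.78-fold. Ligands and a shared receptor thus lay below the range together.

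Cx3cr1, the receptor for fractalkine on monocytes and resident macrophages, went the other way. It had 195 on CsA, against 35.5 on ABH4, 38.7 on BH4 and 50.2 on NIL, a gap of 3.88-fold above. Cxcl9, a chemokine induced by interferon-gamma, had 2501 on CsA, against 4269.7 on ABH4, 3932 on BH4 and 3716 on NIL, a gap of 1.49-fold below that missed the threshold. The median difference of the whole list was -0.28.

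Macrophage and monocyte genes were below the range in 15 of 29 cases and above in 0, with a median difference of -0.81. Msr1, a scavenger receptor, had 167 on CsA, against 869 on ABH4, 916 on BH4 and 700.4 on NIL, a gap of 4.19-fold. Itgb2, the shared chain of the beta-2 integrins, had 490.5 on CsA, against 2153 on ABH4, 1875 on BH4 and 2359 on NIL, a gap of 3.82-fold. Both proteins sit on the surface of monocytes and macrophages, and their CsA signals were well under all others. Clec4e, a receptor for damaged cells and microbes, had 100.3 on CsA, against 403 on ABH4, 367 on BH4 and 303 on NIL, a gap of 3.02-fold. Aif1, a calcium-binding protein of macrophages, had 271 on CsA, against 985 on ABH4, 785 on BH4 and 824 on NIL, a gap of 2.90-fold.

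Other macrophage genes were close to the range or above it. Cd68, a lysosomal glycoprotein of macrophages, had 721 on CsA, against 843 on ABH4, 1047 on BH4 and 934 on NIL, a gap of 1.17-fold below. Of the 29 genes, 5 had CsA above all 3 arrays by less than 1.5-fold. Fcrls, a scavenger protein related to Fc receptors and known from resident macrophages and microglia, is outside this list and lay above the range. It had 165 on CsA, against 56.8 on ABH4, 56.2 on BH4 and 58.1 on NIL, a gap of 2.84-fold. The sum of 5 defining macrophage markers was 5299 on CsA, against 7610 on ABH4, 8201 on BH4 and 7819 on NIL.

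The gap of Saa3, a serum amyloid of the acute-phase response, was the widest of all 12393 genes. It had 120.4 on CsA, against 3673 on ABH4, 2579 on BH4 and 2193 on NIL, a gap of 18.2-fold below. Fpr2, a phagocyte receptor for formyl peptides and serum amyloid, is not in the neutrophil and acute-phase list. It had 114 on CsA, against 1048 on ABH4, 899.9 on BH4 and 781 on NIL, a gap of 6.86-fold. S100a8, a calcium-binding protein of neutrophils and monocytes, had 106 on CsA, against 523 on ABH4, 408 on BH4 and 341 on NIL, a gap of 3.22-fold. In all, 7 of 20 neutrophil and acute-phase genes were below the range, 0 were above and 5 were at the floor on all 4 arrays.

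Hp, which encodes haptoglobin, had 104 on CsA, against 938 on ABH4, 602 on BH4 and 229 on NIL, a gap of 2.21-fold, and its other 3 signals were spread more widely than this gap. Il6 had 83.4 on CsA, against 410.0 on ABH4, 176 on BH4 and 369 on NIL, a gap of 2.11-fold. Pla2g7, the enzyme that inactivates platelet-activating factor, is in neither the acute-phase nor the complement list. It had 138 on CsA, against 965 on ABH4, 1003 on BH4 and 834 on NIL, a gap of 6.05-fold. Of 15 complement genes 5 were below, led by Cfb, factor B of the alternative pathway, with 268 on CsA, against 1448 on ABH4, 992 on BH4 and 1205 on NIL, a gap of 3.70-fold. On the deposited values 3 of the complement genes were below.

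B cell, dendritic cell and mast cell genes had few members outside the range. Of 13 B cell genes 1 was above the range and 0 below. Of 12 dendritic cell genes 1 was above and 2 below, with 0 below on the deposited values. Of 10 mast cell genes 0 were outside. Over all genes 3.09% were above and 4.84% below, so counts this small in short lists do not set them apart. Among 17 leukocyte adhesion genes 6 were below and 1 above. Selplg, the ligand through which leukocytes roll on selectins, had 217 on CsA, against 666 on ABH4, 562 on BH4 and 725 on NIL, a gap of 2.60-fold below.

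Genes induced by interferon-gamma were below the range in 13 of 23 cases and above in 0, and 21 of the 23 were below by any amount, with a median difference of -0.72. Ubd, a ubiquitin-like protein, had 307 on CsA, against 1520.5 on ABH4, 1209.9 on BH4 and 1369 on NIL, a gap of 3.94-fold. Gbp3, a guanylate-binding protein of cell-intrinsic defence, had 405 on CsA, against 1227 on ABH4, 1040.2 on BH4 and 1271 on NIL, a gap of 2.57-fold. Guanylate-binding proteins resemble each other, so a probe set may read several. Cd274, the inhibitory ligand PD-L1, had 664 on CsA, against 1725 on ABH4, 1513 on BH4 and 1480 on NIL, a gap of 2.23-fold. ABH4, BH4 and NIL were close to each other in all 3 genes, and CsA stood apart from them.

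Of 23 genes induced mainly by type I interferon, 4 were below the range and 1 was above, with a median difference of -0.45. When the NIL array was left out of the range, 10 were below. Zbp1, a sensor of nucleic acids, had 376 on CsA, against 921 on ABH4, 858 on BH4 and 808 on NIL, a gap of 2.15-fold. Oas3, an antiviral synthetase, had 156 on CsA, against 383 on ABH4, 347 on BH4 and 327 on NIL, a gap of 2.10-fold. CsA was the lowest array in both genes, and NIL was nearest. The widest gap of the list was that of Dhx58, at the floor on CsA, against 153 on ABH4, 191 on BH4 and 162 on NIL. It was at least 4.38-fold, and another Dhx58 probe set differed in the opposite direction. Ifitm1, an interferon-induced membrane protein, is not in this list. It had 110.0 on CsA, against 907 on ABH4, 581 on BH4 and 811 on NIL, a gap of 5.28-fold.

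Antigen presentation followed the same direction, with 8 of 13 genes of MHC class I and peptide loading below the range and all 13 below by any amount, with a median difference of -0.89. Psmb8, an immunoproteasome subunit, had 822 on CsA, against 2726 on ABH4, 2579 on BH4 and 2624 on NIL, a gap of 3.14-fold. Psmb9, a second such subunit, had 748 on CsA, against 2297 on ABH4, 2112 on BH4 and 2319.5 on NIL, a gap of 2.82-fold. Tap2, a chain of the peptide transporter, had 301 on CsA, against 782 on ABH4, 801 on BH4 and 720.3 on NIL, a gap of 2.39-fold. The median span among ABH4, BH4 and NIL over this list was 0.15 on the log2 scale, against 0.29 over all genes.

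MHC class II genes were below the range in 8 of 10 cases, and in 4 of 10 on the deposited values, with a median difference of -1.01. H2-DMa, which loads peptides onto class II molecules, had 247 on CsA, against 697 on ABH4, 657 on BH4 and 825 on NIL, a gap of 2.65-fold. Cd74, the invariant chain, had 2316 on CsA, against 5379 on ABH4, 5021 on BH4 and 6275 on NIL, a gap of 2.17-fold. H2-Ab1, a class II beta chain, had 566 on CsA, against 1396 on ABH4, 1061 on BH4 and 1713 on NIL, a gap of 1.87-fold. Signals of H2 genes can depend on the strain, which the labels do not give.

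The promoters of Gbp3, from the interferon-gamma list, and Psmb8, from the MHC class I list, are shown as examples. Capitals mark the core of the interferon-stimulated element, a pair of GAAA words with any 2 bases between them or a pair of TTTC words with the same spacing, in Gbp3, and that of the gamma-activated site, TTCNNNGAA, which reads the same on both strands, in Psmb8. Both are the 250 bases before the start in RefSeq on GRCm38.p6, on the plus strand, at chr3:142559794-142560043 for Gbp3 and chr17:34197945-34198194 for Psmb8. The Gbp3 matches began 45 and 39 bases before the start and overlap each other, and the Psmb8 match began 97 bases before it.
Gbp3: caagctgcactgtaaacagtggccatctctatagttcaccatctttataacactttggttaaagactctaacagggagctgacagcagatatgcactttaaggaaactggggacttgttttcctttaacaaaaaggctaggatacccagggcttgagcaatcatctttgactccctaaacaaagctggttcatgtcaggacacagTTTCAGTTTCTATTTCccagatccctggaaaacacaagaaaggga
Psmb8: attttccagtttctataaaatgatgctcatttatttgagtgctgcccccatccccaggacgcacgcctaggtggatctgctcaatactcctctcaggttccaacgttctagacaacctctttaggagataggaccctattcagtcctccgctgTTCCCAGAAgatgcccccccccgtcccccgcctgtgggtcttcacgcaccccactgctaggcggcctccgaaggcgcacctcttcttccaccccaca
The interferon-stimulated core occurred in 2.79% of the genes on the arrays with an entry and in 3.04% of all entries. It was found in 5.97% of those below the range and in 1.42% of those above it. It occurred in 8 of 16 interferon-gamma induced genes and in 8 of 16 type I induced genes that had an entry. The gamma-activated core occurred in 6.05% of the genes on the arrays with an entry and in 7.18% of all entries. It was found in 9.38% of those below the range, in 4.63% of those above it and in 6 of the 16 interferon-gamma induced genes. Of 12 MHC class I genes with an entry, 2 had the gamma-activated core and 1 the interferon-stimulated core. Psmb8 is thus not typical of its list.

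**Figure D3:**
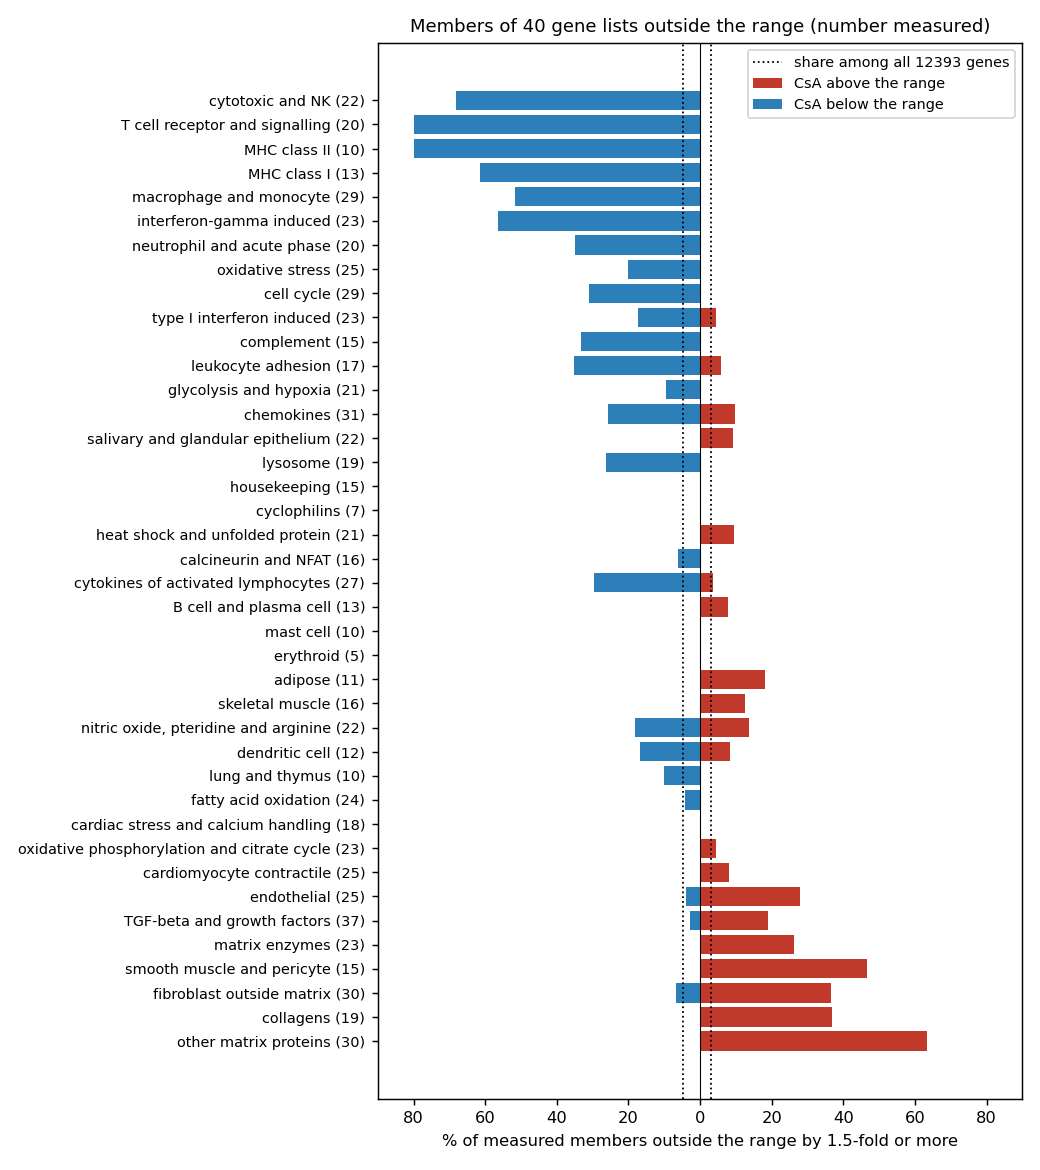
Share of the measured members of 40 gene lists with CsA above (red, to the right) or below (blue, to the left) the range of ABH4, BH4 and NIL by at least 1.5-fold, with the number measured in parentheses. Dotted lines mark the shares among all 12393 genes, 3.09% above and 4.84% below. Lists run from the lowest median difference at the top to the highest at the bottom, and the T cell list has 16 of 20 members below and the list of other matrix proteins 19 of 30 above.

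Extracellular matrix genes formed the opposite pole. CsA was above all 3 arrays in 18 of 19 measured collagens by any amount and by at least 1.5-fold in 7, with 0 below and a median difference of 1.43. Col8a1, a short-chain collagen of vessels and of activated fibroblasts, had 1075 on CsA, against 161 on ABH4, 210.1 on BH4 and 117 on NIL, a gap of 5.12-fold. Col14a1, a fibril-associated collagen, had 387 on CsA, against 125 on ABH4, 136 on BH4 and 92.9 on NIL, a gap of 2.85-fold. In both genes CsA lay above all 3 other arrays, which spanned 1.79-fold in Col8a1. Col15a1, a basement membrane collagen, had 735 on CsA, against 143 on ABH4, 319 on BH4 and 134 on NIL, a gap of 2.30-fold. Col6a2, a chain of microfibrillar collagen, had 1903 on CsA, against 370.1 on ABH4, 886 on BH4 and 322 on NIL, a gap of 2.15-fold.

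The main fibrillar collagens were closer to the range, whose upper end was BH4. Col1a1 had 4713 on CsA, against 1514 on ABH4, 3881 on BH4 and 626 on NIL, a gap of 1.21-fold. Col3a1 had 5600.0 on CsA, against 3168 on ABH4, 4797 on BH4 and 1566 on NIL, a gap of 1.17-fold. BH4 was the highest of the 3 in 17 of the 19 collagens. The median of CsA minus BH4 over the list was 0.44, against 1.56 for CsA minus ABH4 and 2.06 for CsA minus NIL. With BH4 left out of the range, 13 of the 19 collagens were above it.

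Other matrix proteins were above the range in 19 of 30 cases and by any amount in 29, with 0 below and a median difference of 1.47. Mfap4, a protein of elastic microfibrils, had 156 on CsA and was at the floor on ABH4, BH4 and NIL, a gap of at least 4.48-fold. Fbln5, which organises elastic fibres, had 247 on CsA, against 53.0 on ABH4, 64.8 on BH4 and 42.1 on NIL, a gap of 3.81-fold. Sparcl1, a matricellular protein, had 376 on CsA, against 58.5 on ABH4, 112 on BH4 and the floor on NIL, a gap of 3.35-fold. CsA was the highest array in all 3 genes.

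Prelp, a small leucine-rich proteoglycan, had 212 on CsA, against 69.4 on ABH4, 68.3 on BH4 and 66.1 on NIL, a gap of 3.05-fold. Postn, a matricellular protein of activated cardiac fibroblasts, had 3022 on CsA, against 506 on ABH4, 1613 on BH4 and 231 on NIL, a gap of 1.87-fold. In Prelp the other 3 arrays were nearly equal, while in Postn they spread over 6.97-fold. Smoc2, another matricellular protein, is not in the list of other matrix proteins. It had 363 on CsA, against 53.4 on ABH4, 95.4 on BH4 and 58.3 on NIL, a gap of 3.81-fold. Ltbp4, which binds latent TGF-beta in the matrix, had 512 on CsA, against 132 on ABH4, 179 on BH4 and 126 on NIL, a gap of 2.86-fold. Both lay above the range without overlap with any of the other arrays.

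Matrix enzymes were above the range in 6 of 23 cases, and in 12 with BH4 left out. Fap, a serine protease of activated fibroblasts, had 160 on CsA, against 35.9 on ABH4, 72.6 on BH4 and 55.3 on NIL, a gap of 2.20-fold. Loxl1, which cross-links elastin, had 1232 on CsA, against 350.2 on ABH4, 580.4 on BH4 and 207 on NIL, a gap of 2.12-fold. Lox, which cross-links collagen, had 1073 on CsA, against 365 on ABH4, 651 on BH4 and 292 on NIL, a gap of 1.65-fold that fell under 1.5-fold with the mean over its probe sets.

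Fibroblast genes outside the matrix were above the range in 11 of 30 cases and below in 2, with a median difference of 0.86, and with BH4 left out 17 were above. Igf1, an insulin-like growth factor made by stromal cells and macrophages, had 475 on CsA, against 69.8 on ABH4, 116 on BH4 and 41.8 on NIL, a gap of 4.11-fold. Abca8a, a membrane transporter of the ABC family, had 388 on CsA, against 62.5 on ABH4, 85.3 on BH4 and 72.5 on NIL, a gap of 4.55-fold. In both, CsA was several times the highest of the other arrays, which was BH4. Pi16, a marker of fibroblasts in many mouse tissues, had 149.9 on CsA, against the floor on ABH4 and NIL and 36.8 on BH4, a gap of 4.07-fold. Medag, a gene of adipocyte differentiation, had 160 on CsA, against 42.6 on BH4 and the floor on ABH4 and NIL, a gap of 3.75-fold. The 2 genes below the range were Tgfbi, a matrix protein that macrophages also make, and Thy1, which T cells also carry. They were named after their values were seen. Which cells gave the signals of these 2 genes, or of Igf1, was not tested. The sum of 5 defining fibroblast markers was 9307 on CsA, against 3728 on ABH4, 6952 on BH4 and 1789 on NIL.

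Among 37 genes of TGF-beta and growth factor signalling, 7 were above the range and 1 below, with 13 above on the deposited values and 16 above with BH4 left out. Igf2, a second insulin-like growth factor, had 201 on CsA, against 73.2 on ABH4, 63.2 on BH4 and 43.3 on NIL, a gap of 2.74-fold. Igfbp5, which binds both factors, had 375 on CsA, against 133 on ABH4, 141 on BH4 and 119 on NIL, a gap of 2.66-fold. Frzb, a secreted Wnt antagonist, had 159.8 on CsA, against 58.4 on ABH4, 55.1 on BH4 and the floor on NIL, a gap of 2.74-fold. For these 3 genes BH4 was close to ABH4, unlike for the fibrillar collagens.

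Vessel genes had the widest gap above the range. Aplnr, the apelin receptor of endothelial cells, had 470.3 on CsA, against 46.6 on ABH4, 49.5 on BH4 and the floor on NIL, a gap of 9.50-fold. Of 25 endothelial genes 7 were above the range and 1 was below, with a median difference of 0.38. Sox17, an endothelial transcription factor, had 126 on CsA, against 52.8 on ABH4, 58.9 on BH4 and the floor on NIL, a gap of 2.14-fold. Vwf, the von Willebrand factor, had 95.3 on CsA, against 46.1 on ABH4, 39.7 on BH4 and the floor on NIL, a gap of 2.07-fold that fell under 1.5-fold with the floor at the 50th percentile. The sum of 4 defining endothelial markers was 751 on CsA, against 554 on ABH4, 516 on BH4 and 622 on NIL, so the marker sum differed less than the leading genes did.

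Smooth muscle and pericyte genes were above the range in 7 of 15 cases and below in 0, with a median difference of 0.64. Notch3, a receptor of mural cells, had 369 on CsA, against 123 on ABH4, 140.5 on BH4 and 104 on NIL, a gap of 2.62-fold. Abcc9, the regulatory subunit of a potassium channel in pericytes and muscle, had 144 on CsA, against 48.5 on ABH4, 56.2 on BH4 and 61.3 on NIL, a gap of 2.35-fold. Rgs5, a pericyte regulator of G-protein signalling, had 1013 on CsA, against 297 on ABH4, 492 on BH4 and 210.1 on NIL, a gap of 2.06-fold. The sum of 3 defining smooth muscle markers was 1947 on CsA, with 1 of the 3 at the floor, against 1487 on ABH4, 1920 on BH4 and 1998 on NIL, with 2 of the 3 at the floor on each, so it rests mainly on a single gene.

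**Figure D4:**
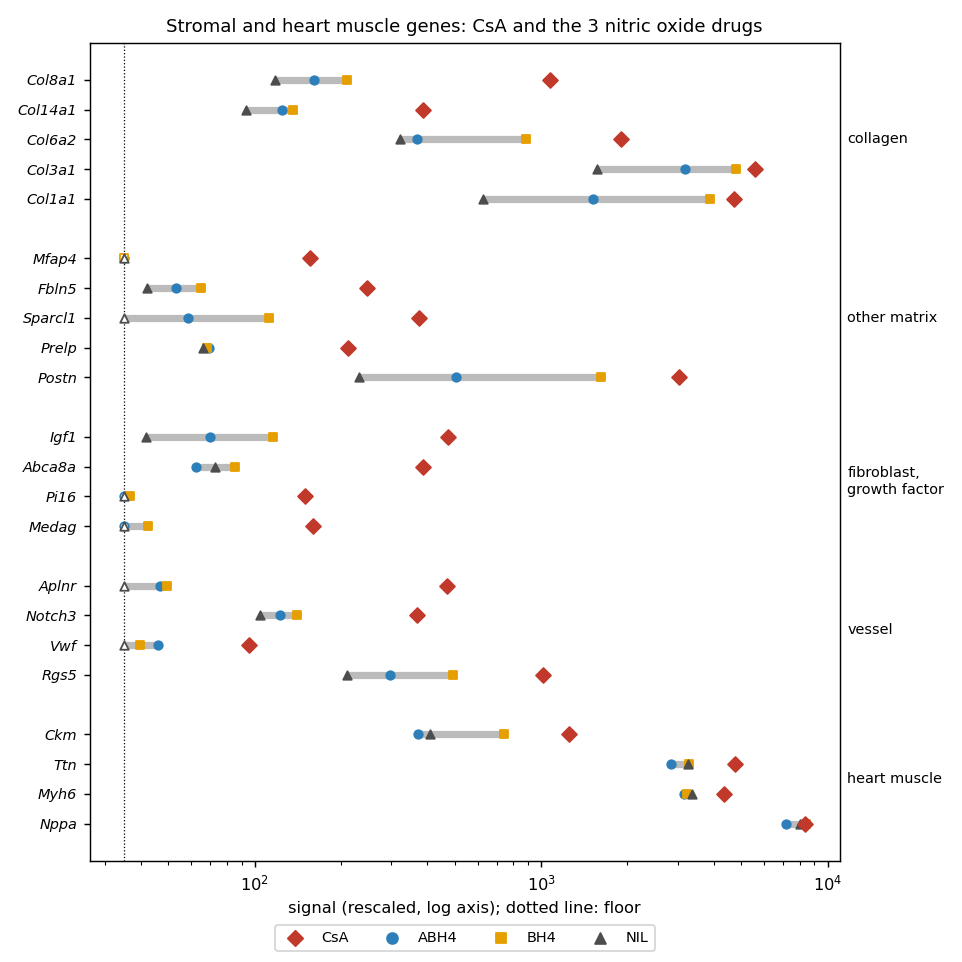
Rescaled signal on a log axis for matrix, fibroblast, vessel and heart muscle genes, with the symbols and grey range bars as in the plot of immune genes (CsA red diamonds, ABH4 blue circles, BH4 orange squares, NIL grey triangles, open symbols at the floor). CsA lies right of the bar in all genes drawn except Nppa. The bar is long in Col1a1 and Postn, where BH4 is high, and short in Prelp and Abca8a.

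Heart muscle genes differed by small amounts. Of 25 contractile genes 2 (8.0%) were above the range and 0 below, with a median difference of 0.20. Over all genes 3.09% were above and 4.84% below. By any amount 16 of the 25 had CsA above all 3 arrays and 4 below, against 22.9% and 28.3% of all genes. Ckm, the muscle creatine kinase, had 1249 on CsA, against 370.3 on ABH4, 740.2 on BH4 and 410.1 on NIL, a gap of 1.69-fold. Ttn, which encodes titin, had 4770.3 on CsA, against 2840.2 on ABH4, 3292 on BH4 and 3256 on NIL, a gap of 1.45-fold. CsA was the highest array in both, with BH4 nearest. Myh6, the adult myosin heavy chain of the mouse ventricle, had 4344 on CsA, against 3164 on ABH4, 3239.5 on BH4 and 3367 on NIL, a gap of 1.29-fold above. Myh7, the fetal heavy chain, had 3017 on CsA, against 3796 on ABH4, 3087 on BH4 and 3234 on NIL, a gap of 1.02-fold below.

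Of 18 genes of cardiac stress and calcium handling 0 were outside the range by 1.5-fold. Nppa, the atrial natriuretic peptide, had 8369 on CsA, against 7151 on ABH4, 8379 on BH4 and 8009.6 on NIL, inside the range. The sum of 5 defining cardiomyocyte markers was 31820 on CsA, against 25887 on ABH4, 30930 on BH4 and 28189 on NIL. In metabolism, 0 of 24 fatty acid oxidation genes were above and 1 was below, and 1 of 23 respiratory chain and citrate cycle genes was above and 0 below. For glycolysis and hypoxia, 0 of 21 genes were above and 2 below. Over all genes 3.09% were above and 4.84% below, so these small counts do not set the metabolic lists apart. Pdk4, a kinase that shuts down pyruvate oxidation, had 456 on CsA, against 863 on ABH4, 1184 on BH4 and 1151 on NIL, a gap of 1.89-fold below. Pgam1, a glycolytic mutase, had 624 on CsA, against 1240.4 on ABH4, 1098 on BH4 and 1091 on NIL, a gap of 1.75-fold below that fell under 1.5-fold with quantile normalization. With BH4 left out of the range, 5 of the glycolysis and hypoxia genes were below.

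The pathway on which the other 3 drugs act had genes outside the range on both sides. Of 22 genes of nitric oxide, pteridine and arginine metabolism 3 (13.6%) were above and 4 (18.2%) below, with a median difference of 0.04. Over all genes 3.09% were above and 4.84% below. Nos2, the inducible synthase, was at the floor on CsA, against 61.3 on ABH4, 54.8 on BH4 and 88.1 on NIL, at least 1.57-fold. The Nos2 gap was under 1.5-fold on the deposited values and with the floor at the 50th percentile, and 2 members of the list were below the range on the deposited values. Nos3, the endothelial synthase, had 209 on CsA, against 174 on ABH4, 189.9 on BH4 and 219 on NIL, inside the range. Gch1, the rate-limiting enzyme of BH4 synthesis, had 185 on CsA, against 263 on ABH4, 256 on BH4 and 249.5 on NIL, a gap of 1.35-fold below.

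Arg1, the arginase that competes with the synthases for arginine, had 324 on CsA, against 1010.5 on ABH4, 1046 on BH4 and 1095 on NIL, a gap of 3.11-fold below. Ddah2, which breaks down an endogenous synthase inhibitor, had 295 on CsA, against 139 on ABH4, 129.7 on BH4 and 125 on NIL, a gap of 2.11-fold above. Gucy1b1, a subunit of the guanylate cyclase that senses nitric oxide, had 178 on CsA, against 75.6 on ABH4, 88.5 on BH4 and 90.7 on NIL, a gap of 1.96-fold above. In these 3 genes ABH4, BH4 and NIL were within 1.20-fold of each other.

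Oxidant production and cell division lay on the low side. Of 25 oxidative stress genes 5 were below the range and 0 above, and with NIL left out 10 were below. Ncf1, a cytosolic subunit of the phagocyte NADPH oxidase, had 77.6 on CsA, against 253 on ABH4, 257 on BH4 and 269 on NIL, a gap of 3.26-fold. Cyba, a membrane subunit of that oxidase, had 1205 on CsA, against 3005 on ABH4, 2742 on BH4 and 2830 on NIL, a gap of 2.28-fold. Xdh, the xanthine dehydrogenase, had 334 on CsA, against 889 on ABH4, 1003 on BH4 and 657 on NIL, a gap of 1.97-fold.

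Of 29 cell cycle genes 9 were below the range and 0 above, with a median difference of -0.46. Mcm2, a subunit of the replicative helicase, had 128 on CsA, against 504 on ABH4, 307 on BH4 and 461 on NIL, a gap of 2.40-fold. Rrm2, a subunit of the enzyme that makes deoxynucleotides, had 153 on CsA, against 427 on ABH4, 309 on BH4 and 341 on NIL, a gap of 2.03-fold. Of 19 lysosome genes 5 were below, 3 on the deposited values and 2 with quantile normalization. Among 21 heat shock genes 2 (9.52%) were above and 0 below, against 3.09% and 4.84% over all genes. By any amount 8 had CsA below all 3 arrays and 3 above, with a median difference of -0.11. The 2 genes above were Hspa1a, with 425 on CsA, against 208 on ABH4, 154 on BH4 and 111 on NIL (2.04-fold), and Hspa1b (1.72-fold). Their sequences are nearly the same, so they do not count as separate evidence.

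The 3 other arrays were not equally far from CsA. CsA and BH4 differed at least 2-fold with CsA higher in 234 genes and BH4 higher in 413. CsA and ABH4 did so in 355 and 501 genes, and CsA and NIL in 366 and 422. BH4 was the nearest array in 47.8% of the genes above the range by 1.5-fold and in 46.5% of those below, against 42.5% and 30.3% of the genes outside by any amount. Over the matrix lists BH4 lay between CsA and the other arrays, and over the T cell and cytotoxic lists it did so as well, with a median CsA minus BH4 of -1.22 and -1.40, against -1.67 and -1.90 for CsA minus ABH4 and -1.55 and -1.90 for CsA minus NIL. The interferon lists had another order. For type I interferon genes the median was -0.60 for CsA minus BH4, against -0.52 for CsA minus ABH4 and -0.28 for CsA minus NIL.

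**Figure D5:**
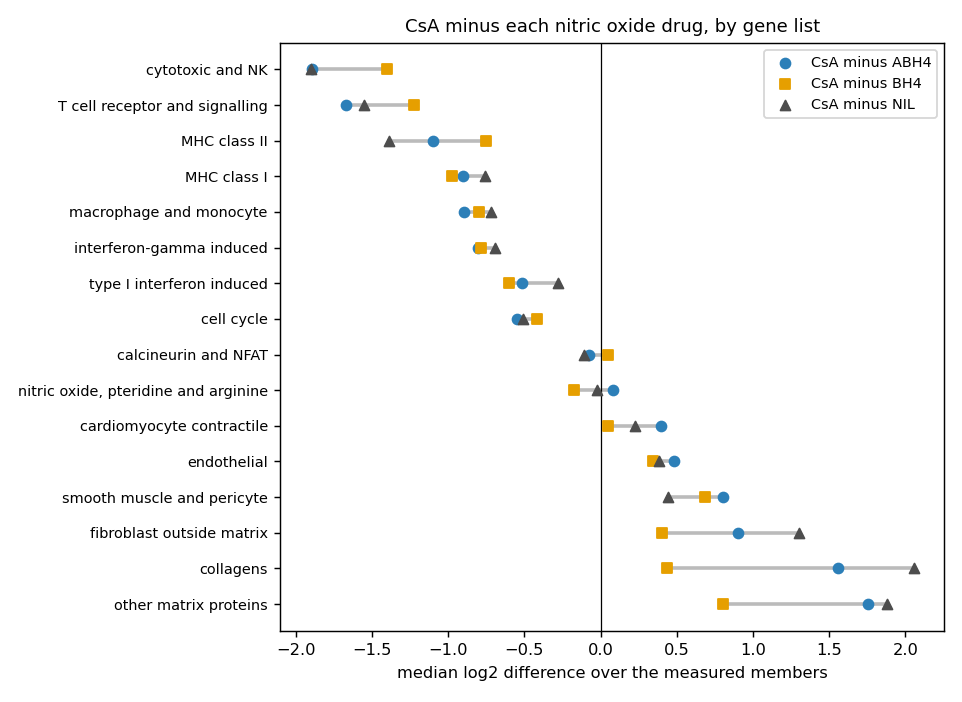
Median over the measured members of 16 gene lists of the log2 signal on CsA minus that on ABH4 (blue circles), BH4 (orange squares) or NIL (grey triangles). The grey line joins the 3 medians of a list, which share the CsA array. In the T cell list they run between -1.67 and -1.22, and in the collagens between 0.44 and 2.06.

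The widest spans among ABH4, BH4 and NIL belonged to salivary genes on BH4, so for these genes CsA was compared with a very broad range. Bpifa2, a secreted salivary protein, was at the floor on CsA and ABH4, against 5812 on BH4 and 56.3 on NIL. Smr3a, a submaxillary gland gene, was at the floor on CsA, ABH4 and NIL and had 3173 on BH4. Amy1, the salivary amylase, was at the floor on CsA, ABH4 and NIL and had 2013 on BH4. In 543 genes, 4.38% of all, the 3 arrays spanned at least 2-fold among themselves. Of 15 housekeeping genes 0 were outside the range by 1.5-fold. By any amount 9 of them had CsA below all 3 arrays and 1 above, against 28.3% and 22.9% of all genes. Their median difference was -0.16, and it was -0.05 on the deposited values.

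Some of the widest gaps belonged to genes outside all 40 lists. Bicc1, an RNA-binding protein, had 556 on CsA, against 138 on ABH4, 189 on BH4 and 74.9 on NIL, a gap of 2.93-fold above. Nrep, a neuronal regeneration related protein, had 317 on CsA, against 39.4 on ABH4, 108 on BH4 and 51.5 on NIL, a gap of 2.93-fold above. H1f10, a linker histone, had 136 on CsA and was at the floor on the other 3 arrays, at least 3.90-fold. Rtbdn and Itih5 had 108 and 101 on CsA and were at the floor on the other 3, and under a floor at the 50th percentile both gaps fell under 1.5-fold.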

How the data were processed

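Total RNA of mouse cardiac grafts had been measured on Affymetrix arrays of 22690 probe sets. The signal intensity values deposited by the authors are linear and already scaled, since the mean of each array after trimming 2% from each end is 200.1. The scanner software, summarisation and background correction are not given in the sources used here. From these values each of the 4 arrays was brought to a common median over its 22626 non-control probe sets, a shift of between -0.08 and 0.09 on the log2 scale. The 30th percentile of the rescaled values served as a floor before log2 transformation. A gene took its brightest probe set among the 20380 annotated to 1 gene symbol, which gave 12393 genes. Probe sets annotated to several symbols (691) or to none (1555) were left out.

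The 40 gene lists hold 880 entries, of which 793 were measured, and some genes are in several lists. The text names the 12 widest gaps each way, restricted to genes over the floor on all 4 arrays, over the array median on at least 1 and without a probe set of opposite sign. It also names from the 4 widest bounds each way, the 4 widest gaps of each list, a fixed set of 32 genes, and the 6 widest spans among ABH4, BH4 and NIL. In genes named for a wide gap, a CsA signal apart from ABH4, BH4 and NIL follows from that choice. The members, lists and rules were chosen with earlier results of these data known. A single array per group gives no variance, so counts, medians and values are given without a test, and the number of arrays limits the precision. Promoter sequences are from RefSeq, GRCm38.p6, and the annotation of the probes names no build. The procedure was tested on simulated data with less scatter between arrays than was seen here. That checks how the gap is computed and gives no error rate for these data. Python 3.11.15, numpy 2.4.6, pandas 2.3.3 and matplotlib 3.10.9 were used, and 10 alternative settings were tried.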

Additional observations from a re-analysis of the deposited data

How the results depend on the processing

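With 1 array per group, the counts have no replicate error, and no setting can supply one. No paired analysis was possible because each group has 1 array and the labels give no replicate numbers. With the floor at the 10th percentile, 654 genes were above the range by at least 1.5-fold, 233 were above and 396 below by at least 2-fold. With the floor at the 50th percentile, 214 were above by 1.5-fold and 59 by 2-fold. Without BH4 in the range, 627 were above by 1.5-fold and 221 by 2-fold, and without NIL 591 were above and 907 below by 1.5-fold. A range over fewer arrays is narrower by construction. The other settings (deposited values, quantile normalization, a filter on the floor, the mean over probe sets, scaling over all 6 arrays and a range without ABH4) kept all 4 counts within 1.5 times. No named gene with a gap of at least 1.5-fold turned its direction in any of the 10 settings. On the deposited values 10 named genes fell under 1.5-fold, namely Cd86, Irf8, C1qa, Cd48, Pfkp, Slc7a2, Ctsz, Ctsh, Tnf and Nos2. Under the floor at the 50th percentile 12 did, and with the mean over probe sets 10 did. The median of the calcineurin and NFAT list changed sign on the deposited values (0.02), as did that of the heat shock list (0.01, against -0.11), and that of the nitric oxide list did so without NIL (-0.05). Without BH4 in the range, small counts differed too: 2 macrophage, 2 dendritic cell, 2 glycolysis and hypoxia, 4 skeletal muscle, 1 cardiac stress, 1 oxidative stress and 1 lysosome gene were above, and 1 B cell and 2 growth factor genes were below.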
